A study of Mus musculus with 8 samples.

Results

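The DNA replication licensing genes examined here were Mcm2, Mcm3, Mcm4, Mcm5, Mcm6, Mcm7, Mcm10, Cdc6, Cdt1 and Gins2. They were chosen by name, as genes of a shared process and with earlier results of these data known, and are 10 of the 27514 genes that the gene lists of all 8 libraries share. All 10 were found in every library, and all 10 passed the filter on low counts in each of the 4 models below. The data were single-cell RNA sequencing counts of unique molecular identifiers (UMIs, tags that mark single captured RNA molecules) from thymic epithelial cells (TEC), the stromal cells that support T cell development in the thymus.

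All mice were wild-type (WT) C57 B6 (CD45.2) animals without treatment, and the sort took live (DAPI-) cells that carried the epithelial protein EpCAM but not CD45, a protein of blood cells. Total TEC were taken at E13.5 (E, embryonic day). Cortical TEC (cTEC), gated as Ly51+ and negative for the lectin UEA-1, came from E15.5 and E17.5 embryos, newborns (NB) of 0 to 2 days and adults of 4 to 6 weeks. Medullary TEC (mTEC), sorted by the converse profile, came from adults of the same age. There was 1 library for each age below the adult and 2 for each adult group. Data set 1 comprised the E13.5, E15.5 and NB libraries with adult replicate 1 of each lineage, and data set 2 comprised the E17.5 library with adult replicate 2 of each. The sources used here do not give how many mice went into a library or whether the replicates came from separate animals. The p-values thus measure the spread between these libraries, which may be technical, and edgeR estimates it in part from all genes together. Embryonic thymi were dissociated with trypsin and newborn and adult thymi with Liberase, so dissociation and age cannot be told apart at that boundary.

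A cell that is to divide prepares its chromosomes for replication in G1, when the origin recognition complex, Cdc6 and Cdt1 load a ring of the proteins Mcm2 to Mcm7 around the DNA at each origin. In S phase the loaded ring becomes the active helicase that opens the DNA, with the GINS complex (of which Gins2 is a subunit), Cdc45 and Mcm10 as partners, while geminin and protein breakdown keep Cdt1 from loading further rings. Transcription factors of the E2F family switch on many of these genes as cells leave rest, and thymic epithelium grows by cell division before birth.

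The promoters of the genes are shown because all 10 genes were lower at each step of age within a data set. RefSeq starts of GRCm38.p6 were matched for 8 of the 10 genes, with 9 entries, since Mcm7 had 2. Mcm4 and Gins2 were not matched. In the 250 bases before each start, both strands were searched for the E2F words TTTCCCGC, TTTCGCGC, TTTGCCGC and TTTGGCGC, for the CHR word TTTGAA and for CCAAT. An E2F word stood before Mcm5, Mcm6, Cdc6 and 1 of the 2 starts of Mcm7, so in 4 of 8 genes, and it was found in 1.86% of all 32851 mouse promoter windows of this length. CCAAT stood before 6 of the 8 genes (Mcm2, Mcm3, Mcm5, Mcm6, Mcm7 and Mcm10) and in 33.8% of all windows, and the CHR word stood before Mcm2 and in 16.0% of all windows. A match describes these letters and is not a measured binding site. The 4 windows with an E2F word are printed below 5′ to 3′ along the gene, with the words in capitals, and Mcm3, which was among the genes that fell with age, is printed beside them as a window without one. In Mcm5 and Mcm6, an E2F word on each strand overlapped to form 1 longer run of capitals, and in Mcm7 and Cdc6 the word is on the opposite strand. The Cdc6 and Mcm7 windows lie within the span that the GENCODE annotation gives the gene, since the RefSeq starts lie inside it.
Mcm5 (chr8:75109259-75109508, plus strand): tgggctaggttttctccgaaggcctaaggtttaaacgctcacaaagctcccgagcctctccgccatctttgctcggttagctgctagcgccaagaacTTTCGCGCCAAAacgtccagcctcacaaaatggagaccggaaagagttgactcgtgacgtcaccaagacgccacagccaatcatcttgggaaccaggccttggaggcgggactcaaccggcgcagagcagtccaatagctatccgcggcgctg
Mcm6 (chr1:128359706-128359955, minus strand): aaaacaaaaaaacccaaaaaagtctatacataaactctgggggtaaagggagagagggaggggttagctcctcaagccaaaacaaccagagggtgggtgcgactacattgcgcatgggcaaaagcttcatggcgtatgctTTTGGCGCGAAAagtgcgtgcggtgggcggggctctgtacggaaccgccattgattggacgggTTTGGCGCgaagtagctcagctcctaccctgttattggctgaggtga
Mcm7 (chr5:138171884-138172133, minus strand): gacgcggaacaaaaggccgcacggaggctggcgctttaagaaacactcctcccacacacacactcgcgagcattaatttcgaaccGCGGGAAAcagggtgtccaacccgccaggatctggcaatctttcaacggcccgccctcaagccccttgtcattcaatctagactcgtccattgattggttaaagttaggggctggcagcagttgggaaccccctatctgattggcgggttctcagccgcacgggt
Cdc6 (chr11:98907901-98908150, plus strand): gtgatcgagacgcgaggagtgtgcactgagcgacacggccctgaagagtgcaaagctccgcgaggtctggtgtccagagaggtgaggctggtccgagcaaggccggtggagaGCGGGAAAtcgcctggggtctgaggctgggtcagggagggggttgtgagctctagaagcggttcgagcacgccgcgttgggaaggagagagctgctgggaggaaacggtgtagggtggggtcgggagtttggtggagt
Mcm3 (chr1:20820313-20820562, minus strand): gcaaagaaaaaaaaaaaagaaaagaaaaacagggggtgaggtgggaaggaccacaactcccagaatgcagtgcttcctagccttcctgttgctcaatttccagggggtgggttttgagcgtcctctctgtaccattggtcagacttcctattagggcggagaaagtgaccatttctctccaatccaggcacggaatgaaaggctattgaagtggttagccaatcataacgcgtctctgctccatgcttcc

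In GRCm38, by the GENCODE annotation, Mcm2 lies on chromosome 6 from 88883474 to 88898780, Mcm3 on chromosome 1 from 20802968 to 20820312 and Mcm4 on chromosome 16 from 15623897 to 15637400. Mcm5 lies on chromosome 8 from 75109569 to 75128439, Mcm6 on chromosome 1 from 128331590 to 128359664 and Mcm7 on chromosome 5 from 138164583 to 138172422. Cdc6 lies on chromosome 11 from 98907801 to 98923940, Cdt1 on chromosome 8 from 122568015 to 122573554, Mcm10 on chromosome 2 from 4989714 to 5012791 and Gins2 on chromosome 8 from 120578633 to 120589304. All 10 are annotated as protein-coding genes.

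Of 28334 deposited cells, 25750 passed limits of 5% mitochondrial UMIs and 5000 genes, and 25367 of these lay outside the thymocyte-like and parathyroid-like clusters and are called epithelial-like. They numbered 493 and 510 in the adult cTEC libraries and from 1585 to 8312 in the other 6, with a median of 3955 UMIs per cell in adult cTEC replicate 1 and from 6024 to 11391.5 elsewhere. All 6 epithelial markers and all 8 cTEC markers on the lists used here were detected in every library, although 1 label field names bone marrow as the source. Adult cTEC replicate 1 stood apart: its 8 mTEC markers summed to 6264 CPM (counts relative to the library total), against 1436 CPM in replicate 2 and 168 to 331 CPM in the E15.5, E17.5 and NB libraries. They summed to 918 CPM in E13.5 TEC, where the gate took total TEC, so gate and age cannot be told apart in the step from E13.5 to E15.5. Between libraries, 433 barcodes recurred, at most 1.90% of the smaller library of a pair. At E17.5, 2440 cells formed a cluster led by haemoglobin genes, and at E13.5, 110 cells formed one led by Hhex and Nkx2-1, genes of the thyroid list, which summed to 79.7 CPM in that library. Both clusters were kept, and without either the counts of the 10 genes called, given below, were 8 in the age trend and 6 between the lineages, as with them.

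All 10 genes were highest at E13.5 and were lower after every step to the adult within each data set, and all 10 were lower in adult cTEC than in adult mTEC of the same data set. For Mcm4, Mcm10 and Cdc6 the interval of the log2 ratio included 0 in some of these steps and lineage pairs, which were thus not beyond counting error. Summed over the 10 genes, the level was 742 CPM (95% interval 728 to 756) in E13.5 TEC, 333 CPM (326 to 340) in E15.5 cTEC, 192 CPM (187 to 198) in NB cTEC and 74.6 CPM (63.5 to 87.0) in replicate 1 of adult cTEC. The libraries of data set 2 gave 163 CPM (160 to 166) in E17.5 cTEC and 90.3 CPM (80.9 to 100.4) in replicate 2 of adult cTEC. Adult mTEC held 208 CPM (201 to 215) and 204 CPM (201 to 208). The intervals of the adult cTEC libraries overlapped, as did those of the adult mTEC libraries. These intervals, and all those given for a single library, cover counting error only. A level summed over cells does not tell fewer cells with the RNA from less RNA per cell, so it is split by cell state further on.

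The MCM ring subunits were described first. Mcm2 was at 61.0 CPM in E13.5 TEC, 27.9 in E15.5 cTEC, 12.2 in E17.5 cTEC, 14.7 in NB cTEC, 6.95 and 6.11 in adult cTEC and 20.7 and 15.8 in adult mTEC. Both adult cTEC libraries were below every other library, and both adult mTEC libraries lay above NB cTEC. Mcm3 was at 128.6 CPM in E13.5 TEC, 43.4 in E15.5 cTEC, 18.3 in E17.5 cTEC, 19.4 in NB cTEC, 5.56 and 6.64 in adult cTEC and 26.3 and 24.3 in adult mTEC. Among the ring genes, its level at E13.5 was the highest multiple of that in either adult cTEC library, and adult mTEC again lay above NB cTEC. Mcm5 was at 86.1 CPM in E13.5 TEC, 37.0 in E15.5 cTEC, 17.3 in E17.5 cTEC, 19.4 in NB cTEC, 4.17 and 13.01 in adult cTEC and 29.8 and 26.6 in adult mTEC. The adult cTEC libraries stood apart for Mcm5, with 9 UMIs in replicate 1 and 49 in replicate 2.

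Mcm6 was at 123 CPM in E13.5 TEC, 62.1 in E15.5 cTEC, 33.6 in E17.5 cTEC, 43.2 in NB cTEC, 16.2 and 17.3 in adult cTEC and 37.7 and 40.8 in adult mTEC. Adult mTEC held about the level of NB cTEC, and adult cTEC held less than either. Mcm7 was at 85.7 CPM in E13.5 TEC, 38.9 in E15.5 cTEC, 25.5 in E17.5 cTEC, 27.2 in NB cTEC, 12.5 and 15.4 in adult cTEC and 40.8 and 45.4 in adult mTEC. It was the gene whose adult mTEC libraries reached the level of E15.5 cTEC. Mcm4 was at 62.3 CPM in E13.5 TEC, 30.7 in E15.5 cTEC, 18.0 in E17.5 cTEC, 28.1 in NB cTEC, 13.9 and 14.6 in adult cTEC and 17.7 and 15.53 in adult mTEC. Its adult libraries of both lineages lay close together, with overlapping counting intervals within each data set.

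Cdc6, the ATPase that opens the way for the ring at the origin, was at 14.8 CPM in E13.5 TEC, 5.68 in E15.5 cTEC, 2.75 in E17.5 cTEC, 4.28 in NB cTEC, 1.85 and 1.86 in adult cTEC and 2.59 and 3.14 in adult mTEC. The adult cTEC values rest on 4 and 7 UMIs. Cdt1, which brings the ring to the origin, was at 37.9 CPM in E13.5 TEC, 17.4 in E15.5 cTEC, 8.25 in E17.5 cTEC, 7.87 in NB cTEC, 1.85 and 3.72 in adult cTEC and 9.14 and 11.3 in adult mTEC. It was among the genes for which adult mTEC lay above NB cTEC.

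Mcm10, a helicase partner outside the ring, was at 23.1 CPM in E13.5 TEC, 8.91 in E15.5 cTEC, 2.59 in E17.5 cTEC, 3.41 in NB cTEC, 2.32 and 0.531 in adult cTEC and 3.67 and 4.46 in adult mTEC. With 5 and 2 UMIs, adult cTEC held too few molecules to order its libraries. Gins2 was at 119 CPM in E13.5 TEC, 61.2 in E15.5 cTEC, 24.4 in E17.5 cTEC, 24.7 in NB cTEC, 9.27 and 11.1 in adult cTEC and 19.6 and 16.97 in adult mTEC. In contrast to Mcm2, Mcm3, Mcm5, Mcm7 and Cdt1, its adult mTEC libraries lay below NB cTEC.

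**Figure D1:**
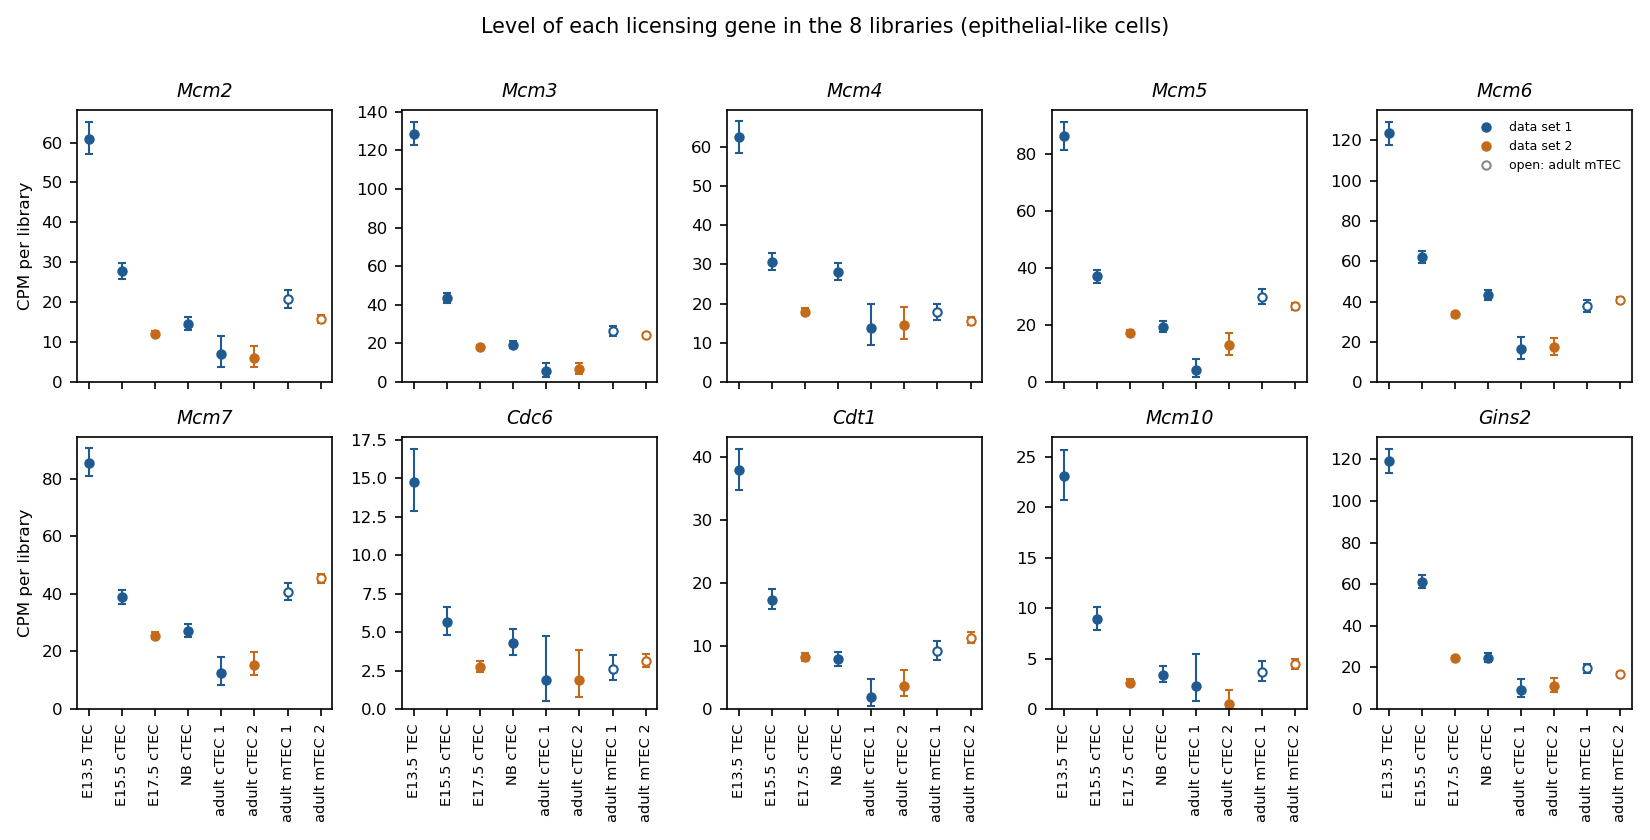
Level of each of the 10 genes in CPM (vertical axes, each from 0) in the 8 libraries, with 95% Poisson intervals as bars. Blue marks data set 1, orange data set 2, and open symbols adult mTEC; every gene is highest in E13.5 TEC, and both adult cTEC libraries lie below both adult mTEC libraries for all 10 genes.

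Steps between libraries of 1 data set were taken as log2 ratios of CPM + 10, which understate the change of low genes, and have no test because each stage below the adult has 1 library. The medians and shares given for all genes in these steps are over genes with a mean of at least 10 CPM in the pair, a filter not set on the 10 genes, of which 6 to 10 met it in each step. From E13.5 TEC to E15.5 cTEC all 10 genes were lower, with a median of -0.87 against -0.05 over all genes, and 2 of 10 were past 2-fold (Mcm3 at -1.38 and Mcm5 at -1.03), against 3.13% of 8178 genes. From E15.5 to NB cTEC the median was -0.56 against -0.01, with 1 gene past 2-fold (Gins2 at -1.04, against 1.47% of genes), and Mcm4 moved least, at -0.09. From NB cTEC to adult cTEC replicate 1 the median was -0.70 against -0.09, with Mcm5 at -1.05 and Mcm6 at -1.02 past 2-fold, against 2.97% of genes. Without the pseudocount, some intervals included 0: Mcm4 from E15.5 to NB (-0.27 to 0.02), and Mcm10 (-2.22 to 0.72) and Cdc6 (-3.11 to 0.19) from NB to adult.

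In data set 2, from E17.5 cTEC to adult cTEC replicate 2, the median was -0.44 against 0.01 over all genes, and no gene of the 10 was past 2-fold, against 2.96% of genes. Without the pseudocount, Mcm3 fell by 1.46 (interval -2.10 to -0.90), Mcm4 by 0.30 (-0.71 to 0.09) and Cdc6 by 0.57 (-1.89 to 0.50) in this step. The falls of Mcm4 and Cdc6 were thus not beyond counting error there. The step of Mcm10 to its 2 UMIs was -2.29 (-5.34 to -0.42). From E13.5 to adult cTEC replicate 1, across all of data set 1, each of the 10 genes was past 2-fold lower, from -1.06 for Cdc6 to -3.15 for Mcm3, with a median of -2.08 against -0.09 over all genes, of which 12.1% were past 2-fold lower.

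The age trend asked whether the genes changed steadily over the cortical line. Stages were ranked from E13.5 (1) and E15.5 (2) over E17.5 (3) and NB (4) to adult (5), and a log2 slope on rank was fitted over 6 libraries with data set as a term, by the quasi-likelihood test of edgeR with Benjamini-Hochberg adjustment over 14305 genes. Of the 10 genes, 8 fell, where 2.89% of all genes tested fell, and the median slope of the 10 was -0.71 log2 units per stage against -0.0015 over all genes. Mcm3 fell by 0.94 per stage (SE 0.12, adjusted p = 0.0105), Mcm10 had a slope of -0.85 (SE 0.12, adjusted p = 0.0166), Cdt1 at -0.82 (SE 0.13, adjusted p = 0.0206) and Gins2 at -0.79 (SE 0.10, adjusted p = 0.0104). Mcm5 (-0.75), Mcm2 (-0.67), Mcm6 (-0.59) and Mcm7 (-0.55) also passed, with adjusted p from 0.0136 to 0.0440. Mcm4 had a slope of -0.38 (SE 0.11, adjusted p = 0.0776) and Cdc6 a slope of -0.56 (SE 0.14, adjusted p = 0.0651), which did not pass.

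The calls rest on few libraries. With 1 library per stage below the adult, their error includes departure from a straight line on rank, not only spread between libraries of a stage. When replicate 1 of adult cTEC was left out, the trend called 16 genes of all tested in place of 1089 and none of the 10 in edgeR, although 9 had an unadjusted p under 0.05 and all 10 slopes stayed negative. Without adult cTEC replicate 2 it called 460 genes and 4 of the 10 (Mcm2, Mcm3, Mcm10 and Gins2), and without E13.5 TEC 4 of the 10 passed (Mcm2, Mcm3, Cdt1 and Gins2). In DESeq2 all 10 passed, with 2851 genes called in all, and without the data set term all 10 passed in edgeR. Over the same libraries the 8 mesenchymal markers summed to 9.79 to 35.2 CPM from E13.5 to NB, with none at 0, and to 509 and 338 CPM in adult cTEC, where 5 and 6 of 8 were detected and Pdgfra was at 0 in both. The 12 thymocyte markers, of which 5 to 12 were detected per library, summed to 6.11 to 14.7 CPM from E13.5 to NB and to 45.4 and 16.7 CPM in adult cTEC. The 6 myeloid markers summed to 0.883 to 3.59 CPM from E13.5 to NB, with 2 to 5 of 6 detected, and to 246 and 34.2 CPM in adult cTEC, with all 6 detected. In the cells kept, the 4 parathyroid markers summed to 132.8 CPM at E13.5 and 90.7 CPM at E17.5, with all 4 detected, to 6.55 CPM at E15.5 and 1.86 CPM in NB cTEC, and to 7.88 and 2.12 CPM in adult cTEC, with Gcm2 at 0 in these last 4 libraries. The part of such cells in the trend was not tested. The 10 genes summed to 268 and 352 CPM in the thymocyte-like cells of the E17.5 and NB libraries, which were left out.

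Adult cTEC and mTEC were compared over 4 libraries with data set as a term. With so few libraries, the error of a gene came mostly from all genes together, so its own spread counted little. Mcm5, at 4.17 and 13.01 CPM in the adult cTEC libraries, is such a case. Of the 10 genes, 6 were lower in cTEC, where 21.7% of 15588 genes tested were lower, and the median difference of the 10 was -1.61 log2 units against -0.14 over all genes. Mcm3 was at -2.10 (SE 0.47, adjusted p = 5.8e-05 in edgeR), Cdt1 at -1.93 (SE 0.59, adjusted p = 0.00482), Mcm5 at -1.84 (SE 0.46, adjusted p = 0.000454) and Mcm7 at -1.69 (SE 0.43, adjusted p = 0.000582). Mcm2 at -1.53 and Mcm6 at -1.29 also passed. Mcm10 had a difference of -1.80 (SE 0.86, adjusted p = 0.0932), Gins2 of -0.89 (SE 0.44, adjusted p = 0.109), Cdc6 of -0.69 (SE 0.83, adjusted p = 0.576) and Mcm4 of -0.28 (SE 0.43, adjusted p = 0.676), and these 4 did not pass.

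Within data set 1, the log2 ratio of CPM + 10 was past 2-fold lower in cTEC for Mcm5 (-1.49), Mcm3 (-1.22) and Mcm7 (-1.17), against 10.8% of 8603 genes, and within data set 2 for Mcm7 (-1.13) and Mcm3 (-1.05), against 12.3% of 8176 genes. Without the data set term, edgeR called 5 of the 10, and Mcm5 was lost (-1.69, adjusted p = 0.0772). DESeq2 called 2 of the 10 (Mcm3 and Mcm7) and 2550 genes in all. With 1 library left out, which needs a fit without the data set term, edgeR called 2 of the 10 without adult cTEC replicate 1, 4 without adult cTEC replicate 2, 1 without adult mTEC replicate 2 (9 genes tested) and none without adult mTEC replicate 1, where 5 had an unadjusted p under 0.05. The sign of every member tested stayed negative in these fits, but sizes moved. Mcm5 was at -1.10 (adjusted p = 0.0639 in edgeR) without adult cTEC replicate 1 and at -2.94 without replicate 2, and Mcm10 at -2.93 and -1.01, so the order of the genes by size depends on the library. The mTEC markers in adult cTEC replicate 1, at 6264 CPM, lay between the 5226 and 9591 CPM of the mTEC libraries, and the mesenchymal markers summed to 509 and 338 CPM in cTEC against 103 and 70.5 CPM in mTEC. The 6 erythroid markers summed to 1.39 and 2.39 CPM in cTEC, with 3 and 4 of 6 detected and Hba-a2 at 0 in both, against 84.7 and 108 CPM in mTEC, and the 6 myeloid markers to 246 and 34.2 CPM against 437 and 557 CPM, with all 6 detected in each. Their part in the difference was not tested. The summed level of the 10 genes was 74.6 CPM there and 90.3 CPM in replicate 2.

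**Figure D2:**
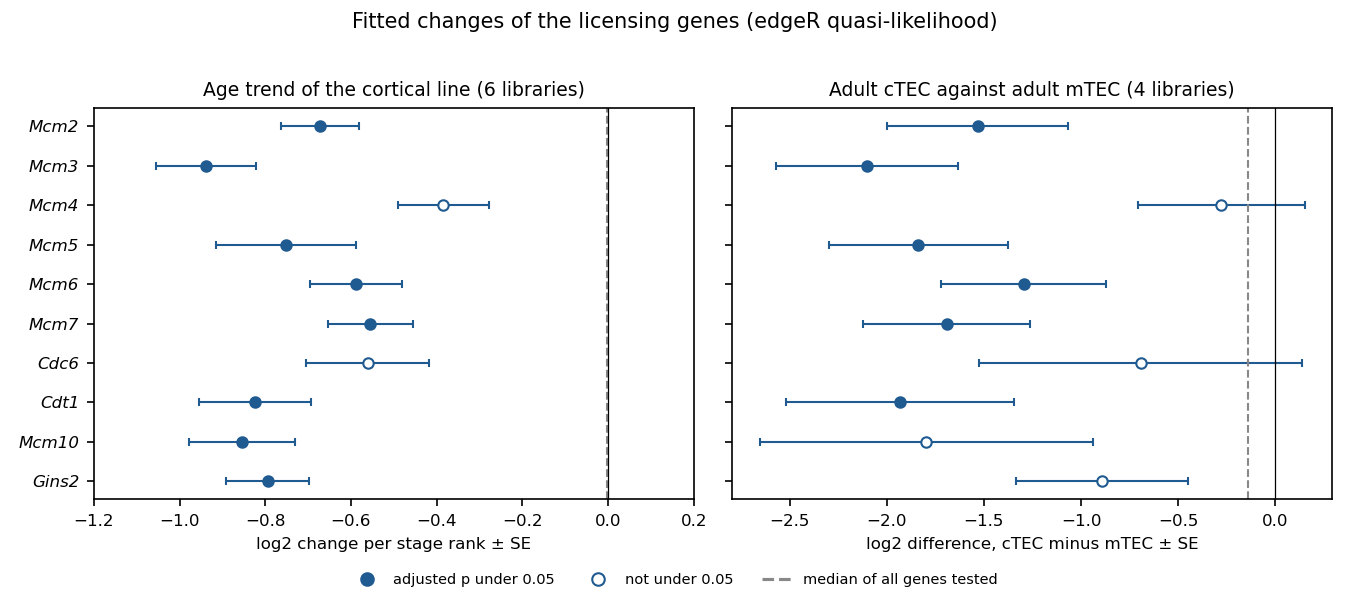
Fitted log2 slope per stage rank (left) and fitted log2 difference of adult cTEC minus adult mTEC (right) of each gene, as points with standard errors as bars. Filled points have an adjusted p under 0.05 in edgeR, dashed lines give the median of all genes tested, and all 20 estimates are below 0.

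The ring genes did not fall in step, and Mcm4 kept a growing part of the ring transcripts in the cortical line. Within each library, UMIs of a gene were taken as a share of those of Mcm2 to Mcm7, a ratio that does not depend on the library total. Mcm4 held 11.4% (95% interval 10.7 to 12.1) in E13.5 TEC, 12.8% (11.98 to 13.6) in E15.5 cTEC, 14.4% (13.7 to 15.05) in E17.5 cTEC, 18.5% (17.2 to 19.8) in NB cTEC and 23.4% (16.4 to 31.7) and 20% (15.4 to 25.2) in adult cTEC. In adult mTEC it held 10.3% (9.17 to 11.4) and 9.21% (8.69 to 9.76), near the share at E13.5. Mcm3 went the other way, from 23.5% in E13.5 TEC through 18.1% (E15.5), 14.7% (E17.5) and 12.7% (NB) to 9.38% and 9.09% in adult cTEC, and held 15.2% and 14.4% in adult mTEC. Mcm7 held 15.7% in E13.5 TEC, 16.2 to 21.1% in the other cortical libraries, and 23.6% and 26.9% in adult mTEC. The adult cTEC libraries differed for Mcm5, with a share of 7.03% (3.27 to 12.9) against 17.8% (13.48 to 22.9). These shares are a description with no test, and a ratio of this kind shows unequal change, not that a gene held its level.

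**Figure D3:**
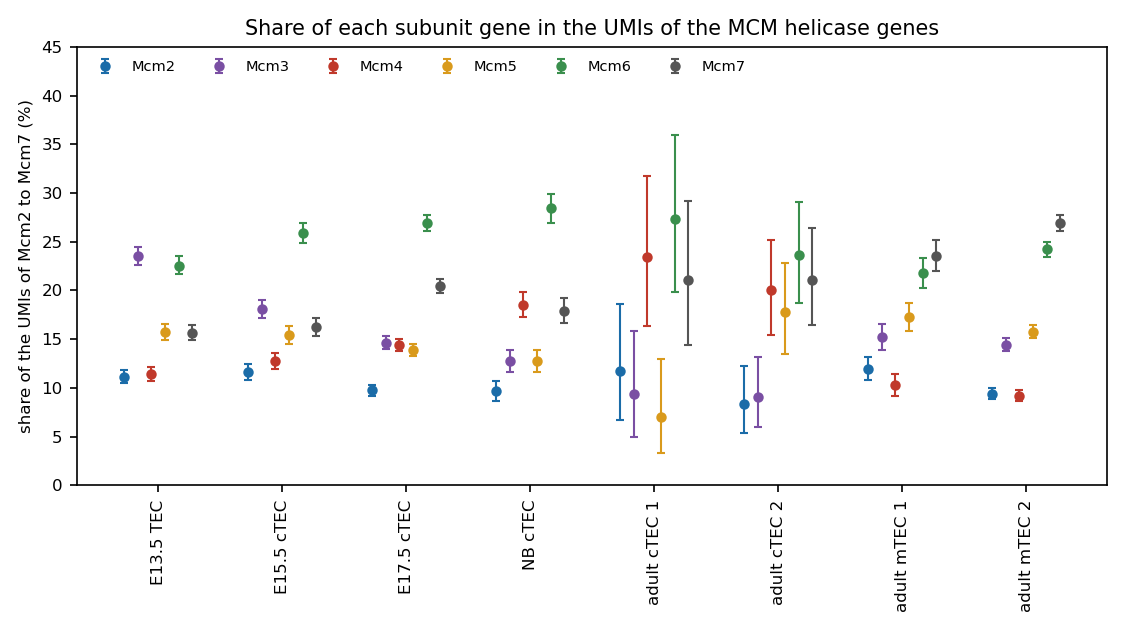
Share of each ring gene in the UMIs of Mcm2 to Mcm7 (vertical axis, percent) in the 8 libraries, with exact 95% binomial intervals. Mcm4 (red) goes from 11.4% in E13.5 TEC to 23.4% and 20% in adult cTEC, and Mcm3 (purple) from 23.5% to 9.38% and 9.09%.

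To set the levels beside cell state, each cell got a proliferation score from 88 S and G2M phase genes that hold none of the 10, within its data set, and cells above 0 are called high-score. This class is a range of the score and not a cell type, and from 2 to 321 cells per library lay within 0.02 of the limit. High-score cells made up 76.6% of E13.5 TEC, 30.0% of E15.5 cTEC, 16.1% of E17.5 cTEC, 11.6% of NB cTEC, 1.83% (9 cells) and 8.24% (42 cells) of adult cTEC and 11.5% and 16.3% of adult mTEC. E13.5 TEC came first, E15.5 cTEC next and adult cTEC last in these shares as in the summed levels, whereas E17.5 cTEC had a higher share than NB cTEC and a lower summed level.

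Within high-score cells the 10 genes summed to 834 CPM in E13.5 TEC, 662 in E15.5 cTEC, 525 in E17.5 cTEC, 702 in NB cTEC, 600 (95% interval 423 to 827) and 402 (341 to 470) in adult cTEC and 628 and 538 in adult mTEC. In low-score cells they summed to 287, 148, 79.4, 113, 59.1, 55.0, 115 and 100.5 CPM in the same order. High-score cells were higher in every library. The ratio of high to low was 2.90 in E13.5 TEC (2.69 to 3.14), 4.47 in E15.5 cTEC (4.27 to 4.68), 6.61 in E17.5 cTEC, 6.24 in NB cTEC, 10.2 (6.83 to 14.8) and 7.31 (5.86 to 9.09) in adult cTEC and 5.44 and 5.35 in adult mTEC. High-score cells gave 93.5% of the UMIs of the 10 genes in E13.5 TEC, 71.6% in E15.5, 60.4% in E17.5 and 49.4% in NB cTEC, 23.0% and 45.3% in adult cTEC and 54.5% and 62.5% in adult mTEC.

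By gene, the ratio of high to low was smallest for Mcm2 and Mcm6 in E13.5 TEC, at 2.04 and 2.06, and largest there for Mcm10, at 13.4. In NB cTEC it ran from 3.09 for Mcm4 to 13.8 for Mcm10, with Mcm5 at 12.2 and Cdc6 at 11.2. Mcm4 had the smallest ratio in 5 of the 8 libraries. In adult cTEC replicate 2, 43 of the 49 Mcm5 UMIs came from the 42 high-score cells, against 4 of 9 from the 9 such cells of replicate 1. Cdc6 had no UMI in the high-score cells of adult cTEC replicate 1, which held 61635 UMIs in all.

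**Figure D4:**
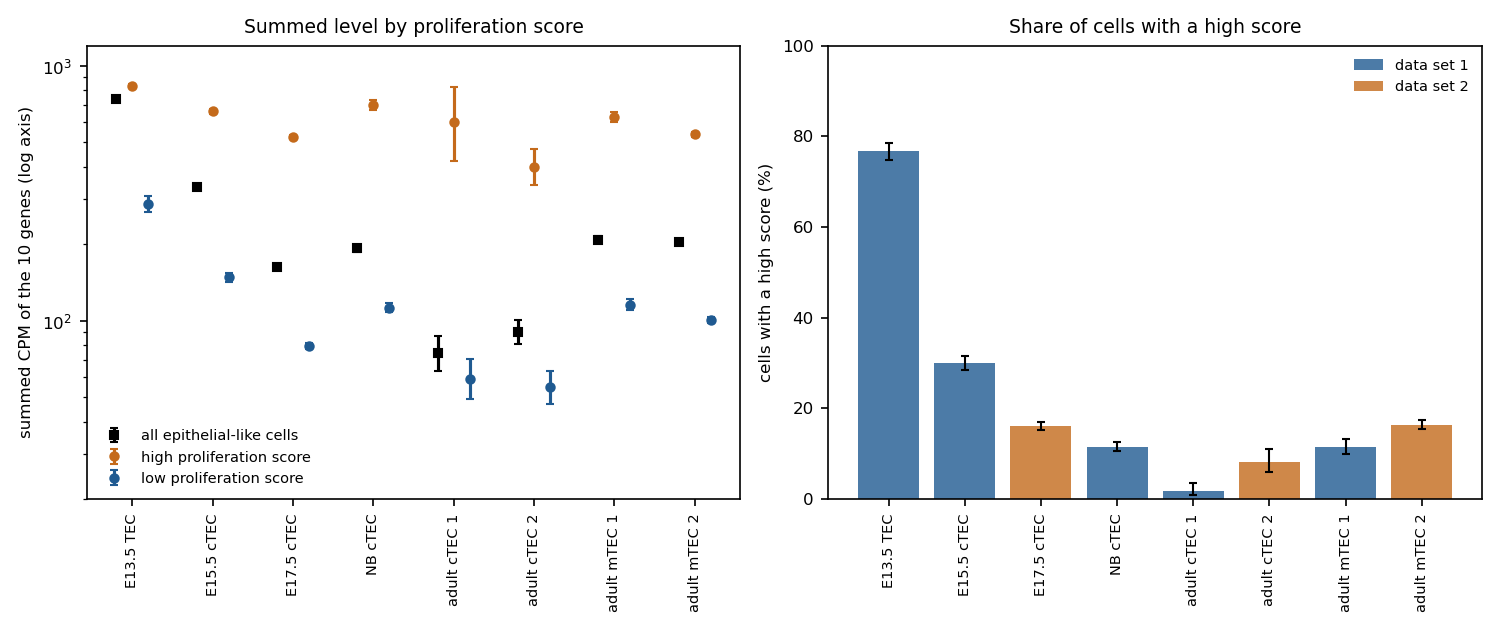
Left, summed CPM of the 10 genes (log axis) in all epithelial-like cells (squares), in high-score cells (orange) and in low-score cells (blue), with 95% Poisson intervals. Right, share of cells with a high score (percent, bars from 0) with exact 95% binomial intervals; the summed level in high-score cells runs from 402 to 834 CPM, and that in low-score cells from 55.0 to 287 CPM.

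The age trend was then fitted on the counts of each class. In low-score cells 4 of the 10 genes fell, where 1.09% of 13402 genes fell, namely Mcm3 at -0.79 (SE 0.15, adjusted p = 0.0409), Mcm5 at -0.70 (SE 0.13, adjusted p = 0.0394), Mcm2 at -0.52 (SE 0.09, adjusted p = 0.0350) and Gins2 at -0.50 (SE 0.09, adjusted p = 0.0327) in edgeR. The median of the 10 was -0.47 against -0.0031 over all genes. None of the 4 passed without adult cTEC replicate 1 (6 of the 10 with an unadjusted p under 0.05, and 4 genes called in all) or without replicate 2 (7 of the 10, and 250 genes in all). With the score cut by the G2M genes alone, 7 of the 10 passed. With the score cut at the Otsu threshold, 5 passed (Mcm2, Mcm3, Mcm6, Cdt1 and Gins2), and Mcm5 did not (slope -0.69, adjusted p = 0.0591). In high-score cells none of the 10 fell in edgeR, by adjusted or unadjusted p, where 0.746% of 12327 genes fell, and no other tool was run on them. With the score cut by the G2M genes alone, 3 had an unadjusted p under 0.05, and without adult cTEC replicate 1, 1 had. Their slopes ran from -0.29 for Mcm10 to 0.05 for Cdc6, with a median of -0.15 against -0.04, and these values rest on 9 and 42 adult cTEC cells. Whether the slopes of the classes differ was not tested. Low-score cells were not all low for S and G2M scores taken apart, least so at E13.5. There 434 cells were low-score and 287 were low for both, against 3040 and 2798 in NB cTEC and 484 and 459 in adult cTEC replicate 1. The low-score trend is thus not a trend of cells outside the cycle alone.

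Cells were also split by separate S and G2M scores above 0 or not. In E13.5 TEC the 10 genes summed to 967 CPM in cells high for S alone, 805 CPM in cells high for both, 215 CPM in cells high for G2M alone and 180 CPM in cells high for neither. In E15.5 cTEC these were 848, 660, 154 and 105 CPM, and in NB cTEC 684, 839, 135 and 93.7 CPM. In these 3 libraries levels were several times higher in cells with a high S score, and cells high for G2M alone lay nearer to cells high for neither than to the other classes. The order of the S classes varied between libraries. As in NB cTEC, cells high for S alone held less than cells high for both, at 192 against 564 CPM in E17.5 cTEC and 319 against 565 CPM in adult mTEC replicate 2, whereas adult mTEC replicate 1 held 827 against 674 CPM. The cause was not tested. Among single genes of E15.5 cTEC, Cdc6 (25.9 against 8.90 CPM) and Cdt1 (65.3 against 28.8 CPM) were higher in cells high for S alone than in cells high for both, and Gins2 (113.5 against 143.6 CPM) was lower.

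The share of cells with a UMI was taken after thinning each cell to 3000 UMIs, and cells with fewer were left out. In adult cTEC replicate 1 this left out 148 of 493 cells, so its shares are of its 345 deeper cells. In the other libraries it left out 9 to 206 cells. A UMI of any of the 10 genes was found in 73.95% of cells in E13.5 TEC, 41.5% in E15.5 cTEC, 26.9% in E17.5 cTEC, 27.7% in NB cTEC, 19.4% (15.4 to 23.995) and 16.7% (13.52 to 20.4) in adult cTEC and 26.5% and 29.6% in adult mTEC. Beside these shares stand tuft-like mTEC, which are cells with UMIs of at least 3 of 9 markers of tuft cells, a chemosensory type, at 25.3% (20.8 to 30.3) of 340 cells in adult mTEC replicate 2 and 18.2% (5.19 to 40.3) of 22 cells in replicate 1. Their median depth was 13505 and 9462 UMIs before thinning, against 3955 to 11391.5 in the libraries. They held 210 CPM of the 10 genes in replicate 2, where low-score cells held 100.5 CPM, and 130 CPM in replicate 1, where low-score cells held 115 CPM. They are thus not taken as a class without this RNA, and the part of free RNA in the shares was not measured. Cells low for both S and G2M had a UMI in 22.1% (20.8 to 23.4) in adult mTEC replicate 2, below the 29.6% (28.4 to 30.8) of all its cells. Over all cells, E13.5 TEC and E15.5 cTEC lay above the interval of the 340 tuft-like cells, and the other 6 libraries overlapped it or lay below it. High-score cells lay above it in all libraries but adult cTEC, from 58.5% in NB cTEC to 81.6% in E13.5 TEC. In adult cTEC they gave 5 of 7 and 14 of 40 cells, with wide intervals (29.0 to 96.3% and 20.6 to 51.7%). Of low-score cells, 47.8% (42.9 to 52.8) had a UMI in E13.5 TEC, above that interval, and 29.5% (27.7 to 31.4) in E15.5 cTEC, which overlapped it.

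By gene, Mcm3 was found in 29.2% of thinned cells in E13.5 TEC, Mcm6 in 27.8% and Gins2 in 27.1%, against 3.53%, 8.24% and 3.53% of the tuft-like cells of adult mTEC replicate 2. At E15.5 these were 9.84%, 13.8% and 13.7%. In adult cTEC no gene of the 10 exceeded 5.17%, while Mcm7 was found in 8.12% and 9.90% of adult mTEC against 3.48% and 3.10% of adult cTEC. In tuft-like cells Mcm7 was found in 9.09% and 7.94% (5.30 to 11.3), so the mTEC shares lay within the interval of those cells. Without thinning, these Mcm7 shares were 22.5% and 28.8% against 4.87% and 7.65%.

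**Figure D5:**
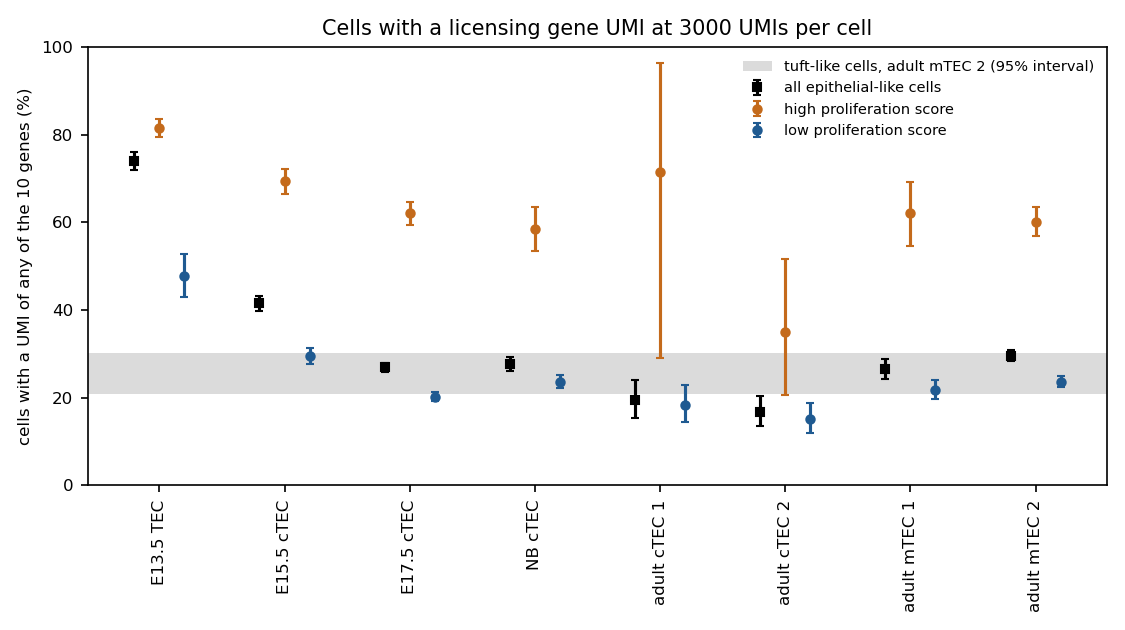
Share of cells (percent) with a UMI of any of the 10 genes after thinning to 3000 UMIs per cell, for all epithelial-like, high-score and low-score cells, with exact 95% binomial intervals. Cells with fewer than 3000 UMIs are left out, 148 of 493 in adult cTEC replicate 1. The grey band is the interval of tuft-like cells of adult mTEC replicate 2 (20.8 to 30.3%); among all cells, E13.5 TEC at 73.95% and E15.5 cTEC at 41.5% lie above it.

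Other genes of the replication machinery were taken from fixed lists. With age none rose, against 4.73% of all genes tested, while 2.89% of all genes fell. Of 10 genes of licensing control 5 fell, led by Dtl at -1.17 (adjusted p = 0.00639), part of the ligase that breaks down Cdt1, and Ccna2 at -0.99 (adjusted p = 0.0459), cyclin A. Of 11 origin firing and helicase partner genes 5 fell, led by Ticrr at -1.43 and Cdc7 at -0.85. Ticrr brings helicase partners to the ring and had 0 and 1 UMIs in the adult cTEC libraries. Cdc7, the kinase that phosphorylates the ring, had 2 and 6 there. Of 23 genes of synthesis at the fork 10 fell, led by Pole at -1.21, the leading-strand polymerase, and Clspn at -1.04, a fork checkpoint adaptor. Adult cTEC held 0 and 2 UMIs of Pole and 8 and 6 of Clspn. Of 7 nucleotide supply genes 5 fell, led by Dctd at -0.61 and Tyms at -0.59, and of 11 E2F and Rb genes 2 fell, E2f1 at -0.76 and E2f7 at -0.72. None of the 6 origin recognition complex genes passed in edgeR, while 3 had an unadjusted p under 0.05, and all 6 slopes were negative. These calls too rest on few libraries, since without adult cTEC replicate 1 the trend called 3 genes lower of all 14098 tested. In low-score cells 3 genes of these lists fell (Dtl, Timeless and E2f7), where 1.09% of all genes tested fell. In high-score cells none did in edgeR, where 0.746% of all genes fell, with 0 to 3 genes per list at an unadjusted p under 0.05. The score itself uses several genes of these lists, among them Dtl, Gmnn, Prim1, Fen1, Clspn and Tyms. Sorting cells by it narrows the change of such genes within a class, so these counts are not a test of them.

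Between adult cTEC and mTEC, 3 of 10 licensing control genes were lower in cTEC, against 21.7% of all genes tested, with Ccna2 and Dtl each at -1.81. Ccna2 was at 2.32 CPM (5 UMIs) and 16.7 CPM (63 UMIs) in cTEC against 24.4 and 29.5 CPM in mTEC, so its difference was uneven between the data sets. In cTEC 1 of 10 helicase partner genes was lower, Cdc45, at -1.69. At the fork 8 of 23 were lower, led by Pole at -4.05, from 0 and 2 UMIs in adult cTEC, and Pold1 at -3.38, at 15.3 and 7.96 CPM in cTEC against 96.7 and 125 CPM in mTEC. Of the nucleotide supply genes 3 of 7 were lower, led by Rrm2 at -1.69 and Tyms at -1.43. Of the E2F and Rb genes, E2f2 at -4.16 (0 and 4 UMIs in adult cTEC) and E2f1 at -2.49 were lower, and Rbl2 at 1.33 was higher, as were 11.7% of all genes tested (14.8 and 11.9 CPM in cTEC, 5.47 and 4.65 CPM in mTEC). None of 5 origin recognition complex genes passed in edgeR, by adjusted or unadjusted p.

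Of 8534 genes with a mean of 10 CPM or more, Gmnn, which encodes geminin, the inhibitor of Cdt1, followed the mean of the 10 genes most closely over the 8 libraries, with a Pearson r of 0.998 on log2(CPM + 10). Its level was 196 CPM in E13.5 TEC, 76.5 in E15.5 cTEC, 32.4 in E17.5 cTEC, 36.3 in NB cTEC, 15.8 and 15.4 in adult cTEC and 41.0 and 40.9 in adult mTEC. Others among the nearest were Prim1 (0.99), Stau2, Chaf1b, Hells, Pbrm1, Mrpl18, Dctpp1 and Uhrf1 (0.98 to 0.99). Each of the 10 genes correlated with the mean of the other 9 at 0.92 (Mcm4 and Mcm7) to 0.996 (Mcm3). The 8 points share depth per library and data set, and these values are a description with no test.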

How the data were processed

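Single-cell RNA libraries of 8 sorted TEC samples were analysed. Per the labels and the study's methods, the authors made Chromium version 2 libraries of 3′ tags and counted UMIs per gene and cell with Cell Ranger 2.0.1 (STAR 2.5.1b, bcl2fastq 2.17, mm10); the matrix headers of data set 2 name version 3.0.1. The deposited values are raw counts, without normalization. The gene lists hold 27998 and 31053 genes, and the 27514 in both were used.

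Cells above 5% mitochondrial UMIs or 5000 genes were left out. The cells kept equal the numbers that the study's methods give for data set 1, and differ from them for data set 2. Cells were clustered per data set (2000 variable genes, 20 components, 20 neighbours, Leiden resolution 0.8; leidenalg 0.10.2), and thymocyte-like and parathyroid-like clusters were left out, by 3 or more markers, and over 50% of a list, at 4-fold. No doublet caller was run beyond the limit on genes. Tuft-like cells had UMIs of at least 3 of 9 tuft markers. Counts were summed per library and fitted in edgeR 4.0.16 (filterByExpr, TMM, quasi-likelihood test, threshold 0.05) and DESeq2 1.42.0 (R 4.3.3), and a standard error is the estimate over the square root of F. Poisson and exact binomial intervals have a level of 95%. Both fits were tested on simulated data. With 200 genes changed by 1 per stage over 14305 genes, the trend fit recovered 195, with 7.58% false calls, over the nominal level. With a change of 2 over 15588 genes, the lineage fit recovered 181, and 3.72% were false. The licensing genes had smaller slopes, from -0.38 (Mcm4) to -0.94 (Mcm3). Their lineage differences ran from -0.28 (Mcm4) to -2.10 (Mcm3), and only that of Mcm3 was past 2. In adult cTEC they were at 0.531 CPM (Mcm10, replicate 2) to 17.3 CPM (Mcm6, replicate 2). Recovery at such changes and levels was not tested, so these numbers do not give the power for the licensing genes.

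The 10 genes, the lists and the tests were chosen with earlier results of these data known. Named were all 10, the 2 genes of each other list with the largest change past the threshold, and the 10 nearest by correlation, of which 1 is not reported here.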

Additional observations from a re-analysis of the deposited data

How the results depend on the processing

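Scaling, the filter on low counts, the cells and clusters left out and the data set term changed the counts of genes called by less than 1.5 times. Without that term the age trend called 1257 genes and all 10 licensing genes, and the lineage comparison 4221 genes and 5 of the 10. The age trend called 1089 genes, 2851 in DESeq2, 413 within data set 1 (5 of the 10 genes), 31 without the adult libraries (none of the 10 in edgeR, 9 with an unadjusted p under 0.05; E17.5 is then alone in its data set), and 16 to 460 with an adult cTEC library left out. The lineage comparison called 5201 genes, 2550 in DESeq2 and, with 1 library left out and no data set term, 638 to 2837 (2371 without adult cTEC replicate 2, 1650 without adult mTEC replicate 2). The trend in low-score cells called 638 genes, 4 to 250 with an adult cTEC library left out and 179 without the adult libraries. The trend in high-score cells called 377, then 154 to 590 and 235. The fit without adult libraries was chosen after seeing the data.

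Over these alternatives every slope and difference of the 10 genes stayed negative in the age trend and the lineage comparison. Slopes changed sign for Mcm4 in low-score cells (0.0181 without adult cTEC replicate 1, -0.14 without replicate 2), for Mcm5 in high-score cells (0.0837 and -0.0855), and in high-score cells without the adult libraries for Mcm4 (0.0141), Mcm6 (0.0314) and Mcm7 (0.0047). None of these passed the test in either fit, and the cause was not tested.

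With a pseudocount of 1 CPM, median steps were -1.11 (E13.5 to E15.5), -0.89 (E15.5 to NB), -1.19 (NB to adult) and -0.91 (E17.5 to adult). The shares of cells with a UMI of any of the 10 genes follow depth. Thinned to 2000 UMIs they were 64.3% (E13.5), 31.1% (E15.5), 19.7% (E17.5), 21.1% (NB), 14.02% and 11.9% (adult cTEC) and 20.8% and 22.8% (adult mTEC). Unthinned they were 87.9%, 60.9%, 55.6%, 44.6%, 23.3%, 30.0%, 52.8% and 61.4%. Libraries could be paired only by data set, because the labels give no replicate numbers. The adult cTEC and mTEC libraries pair in that way, and data set is a term of the reported fits. Depth limits adult cTEC most: 161 and 340 UMIs of the 10 genes stand behind its values.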

Other observations

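Cells outside the comparisons also carried the licensing genes. Cells left out for more than 5000 genes held a summed level of the 10 genes of 240 CPM in the E17.5 library (100 cells), 440 CPM in adult mTEC replicate 1 (34 cells) and 351 CPM in adult mTEC replicate 2 (338 cells). Each of these was above the level of the cells kept from the same library, which was 163, 208 and 204 CPM. Thymocyte-like cells, which were left out, held 268 CPM in the E17.5 library (38 cells), 352 CPM in the NB library (168 cells) and 439 and 260 CPM in the adult cTEC libraries (14 and 25 cells). Tuft-like cells, which were kept, held 130 CPM in adult mTEC replicate 1 and 210 CPM in replicate 2, where the whole library held 204 CPM.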
